A study of Rattus norvegicus with 4 samples.

Results

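Expression of 10 neuropeptide receptor genes was described in the rat hypothalamus: the somatostatin receptors Sstr1, Sstr2, Sstr3 and Sstr4, the neuromedin B receptor Nmbr, the relaxin-3 receptor Rxfp3, the galanin receptor Galr1, the tachykinin receptors Tacr1 and Tacr3, and the corticotropin-releasing hormone receptor Crhr1. They were found by gene symbol, and 9 of the 10 had a probe, 1 each, among 22523 probes and 21467 genes. No probe matched Sstr3, which was not analysed here. The set was chosen by gene name with the signals of these same 4 samples known, among them the differences of Nmbr, Sstr1 and Rxfp3, so every difference below is a description and carries no test.

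Illumina bead arrays, on which a signal is read from beads that each carry 1 probe, had been hybridised with hypothalamic total RNA of male Wistar rats aged 4 months. There were 4 groups with 1 sample each: control rats on the standard diet (control/standard), control rats on the high-fat diet (control/HF), prenatally undernourished FR30 rats on the standard diet (FR30/standard) and FR30 rats on the high-fat diet (FR30/HF). The sources do not say whether a sample is 1 animal or a pool, and no difference has a replicate check. Of 17 marker genes of the hypothalamus, 16 were detected in all 4 samples and Sim1 in none. Between 10579 and 11122 probes per sample were detected at a detection p under 0.01, the share of negative control probes that are at least as bright. In a dissected tissue, fewer cells of a type and less RNA per cell cannot be told apart.

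All 10 genes encode receptors with 7 membrane-spanning segments that act through G proteins. Somatostatin, galanin and relaxin-3 receptors mostly couple to inhibitory G proteins, which lower cyclic AMP and open potassium channels. Neuromedin B and tachykinin receptors act through Gq and calcium, and the Crhr1 receptor through Gs, which raises cyclic AMP. In the hypothalamus these systems are known for restraint of growth hormone release (somatostatin), pulsatile reproductive hormone release (neurokinin B), feeding (relaxin-3 and galanin in rats) and the stress response (corticotropin-releasing hormone).

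The promoters of the 4 receptors with the widest log2 range over the groups, and of Sstr2, which had the narrowest of the detected ones, are shown so that the paralogs can be set side by side. Each runs from 250 bases before to 50 bases after a transcript start in RefSeq (build GRCr8), 5′ to 3′ on the gene's strand. The starts used for Nmbr and Sstr1 lie inside the spans of those genes, which begin at chr1:10942476 and chr6:81567237. Capitals mark the letters TGACG, the half-site of a cyclic AMP response element, on either strand, and the TATA box letters TATAAA. The windows lie at chr6:81567233-81567532 (plus strand, Sstr1), chr10:99163103-99163402 (plus, Sstr2), chr1:10954734-10955033 (plus, Nmbr), chr2:61731757-61732056 (minus, Rxfp3) and chr4:116478367-116478666 (plus, Tacr1).
Sstr1: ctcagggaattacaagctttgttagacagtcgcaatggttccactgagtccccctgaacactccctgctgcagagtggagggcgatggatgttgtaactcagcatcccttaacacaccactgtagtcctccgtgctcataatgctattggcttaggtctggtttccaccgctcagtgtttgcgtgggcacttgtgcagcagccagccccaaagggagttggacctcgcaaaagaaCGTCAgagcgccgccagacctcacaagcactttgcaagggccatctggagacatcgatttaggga
Sstr2: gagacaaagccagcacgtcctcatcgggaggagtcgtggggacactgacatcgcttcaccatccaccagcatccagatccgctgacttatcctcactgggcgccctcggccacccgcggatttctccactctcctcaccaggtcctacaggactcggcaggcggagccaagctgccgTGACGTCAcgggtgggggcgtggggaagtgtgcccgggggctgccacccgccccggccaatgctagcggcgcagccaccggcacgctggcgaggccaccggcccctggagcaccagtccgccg
Nmbr: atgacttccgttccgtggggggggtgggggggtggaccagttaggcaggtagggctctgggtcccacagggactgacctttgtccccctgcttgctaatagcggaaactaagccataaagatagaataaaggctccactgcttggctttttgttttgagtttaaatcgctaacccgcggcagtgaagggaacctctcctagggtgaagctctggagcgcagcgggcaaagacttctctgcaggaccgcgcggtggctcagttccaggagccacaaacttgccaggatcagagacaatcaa
Rxfp3: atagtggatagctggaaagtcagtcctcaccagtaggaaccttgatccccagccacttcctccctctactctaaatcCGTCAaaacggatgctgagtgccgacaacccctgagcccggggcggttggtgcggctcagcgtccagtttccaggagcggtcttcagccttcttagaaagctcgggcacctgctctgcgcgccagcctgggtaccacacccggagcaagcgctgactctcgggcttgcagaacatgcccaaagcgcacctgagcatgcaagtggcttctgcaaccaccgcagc
Tacr1: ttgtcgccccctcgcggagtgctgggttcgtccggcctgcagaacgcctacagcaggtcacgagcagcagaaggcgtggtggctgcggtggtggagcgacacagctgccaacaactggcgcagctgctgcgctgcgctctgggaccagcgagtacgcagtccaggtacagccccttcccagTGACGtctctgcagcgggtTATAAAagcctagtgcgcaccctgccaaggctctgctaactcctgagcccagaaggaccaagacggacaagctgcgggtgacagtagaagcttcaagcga
The full 8-letter element TGACGTCA, in which the half-sites of both strands overlap, was found in Sstr2 alone of these 5, and it occurs in 1.91% of 27457 RefSeq promoter windows of the same length. Sstr1, Rxfp3 and Tacr1 held 1 half-site each and Nmbr none, while 22.0% of all windows hold at least 1. Tacr1 also held the TATA letters, as do 14.3% of windows. A match says only that the letters are there.

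**Figure D1:**
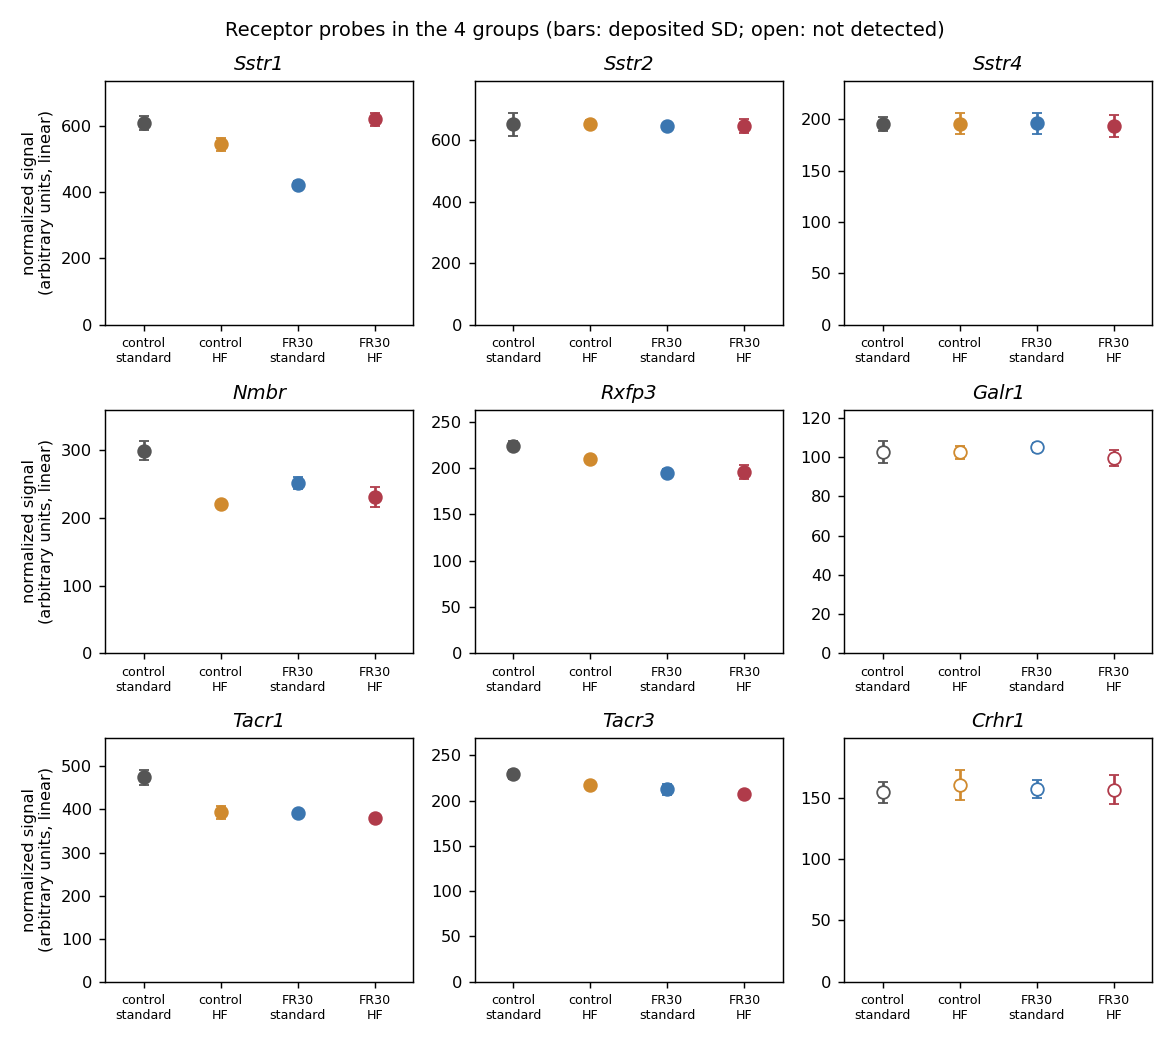
Normalized signal (linear, arbitrary units, axes from 0) of the 9 receptor probes in the 4 samples, with bars for the deposited SD and open symbols where the probe was not detected at p under 0.01. Sstr1 is lowest in FR30/standard, Nmbr and Tacr1 are highest in control/standard, Sstr2 and Sstr4 are level, and Galr1 and Crhr1 are open in every sample.

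Detection divided the receptors in the same way in every group. Sstr1, Sstr2, Sstr4, Nmbr, Rxfp3, Tacr1 and Tacr3 were detected in each of the 4 samples, 7 of 9 probes, and Galr1 and Crhr1 in none. Of all 21467 genes, 47.1% were detected in all 4 samples.

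Galr1, an inhibitory galanin receptor, read 103 ± 5.42 (normalized signal ± deposited SD) in control/standard, 103 ± 3.39 in control/HF, 105 ± 2.44 in FR30/standard and 99.6 ± 3.95 in FR30/HF. Its detection p lay between 0.978 and 0.983, so nearly all negative control probes were brighter. For Crhr1, the receptor through which corticotropin-releasing hormone starts the stress response in the pituitary, the signals were 154 ± 8.67, 161 ± 12.2, 157 ± 7.33 and 157 ± 11.98 in the same order. Both probes were not well above background in any group, which says nothing about differences between groups and does not show that the genes were silent. The lowest signal detected in a sample was between 183 and 191.

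Among the somatostatin receptors, Sstr1 ranged beyond its SD, and Sstr2 and Sstr4 stayed within theirs. Sstr1 had signals of 607 ± 21.0 (deposited SD) in control/standard, 543 ± 19.5 in control/HF, 421 ± 12.1 in FR30/standard and 619 ± 19.4 in FR30/HF. Control/standard and FR30/HF lay within 1 SD of each other, control/HF stood lower by less than 2 SDs on each side, and FR30/standard was lowest. Sstr2, a main receptor through which somatostatin inhibits neurons and pituitary cells, read 651 ± 37.0, 653 ± 11.1, 646 ± 4.25 and 646 ± 22.4 in the same order. Its highest signal was 1.01 times its lowest, and the 4 values could not be ordered beyond their SD. Sstr4, another inhibitory somatostatin receptor of the brain, read 195 ± 7.10, 195 ± 10.4, 196 ± 10.3 and 193 ± 10.7, close to the detection limit and likewise without an order.

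Nmbr, the receptor for the bombesin-like peptide neuromedin B, had signals of 299 ± 14.1 (deposited SD) in control/standard, 221 ± 4.33 in control/HF, 251 ± 8.42 in FR30/standard and 231 ± 14.6 in FR30/HF. Control/standard stood above the other three and control/HF lowest, with FR30/HF within 1 SD of it. Rxfp3, which binds the peptide relaxin-3 of the brainstem nucleus incertus, had 224 ± 4.72, 209.6 ± 2.28, 195 ± 3.85 and 196 ± 7.28 in the same order. Here both FR30 samples lay below both control samples and did not differ from each other beyond their SD. Both FR30 values were close to the detection limit, with lowest detected signals of 191 in FR30/standard and 188 in FR30/HF.

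Tacr1, the substance P receptor, had 475 ± 17.5 (deposited SD) in control/standard, 394 ± 15.2 in control/HF, 393 ± 5.23 in FR30/standard and 381 ± 7.25 in FR30/HF. Control/standard stood apart, and the other three differed from each other by less than the sum of their SDs. Tacr3, the neurokinin B receptor of the neurons that pace gonadotropin release, had 229 ± 4.94, 217 ± 1.46, 213 ± 6.27 and 207 ± 2.71. Neighbouring groups in that order were less than 2 SDs apart on each side, and the highest and the lowest were further apart than that.

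Of the 7 detected receptors, 4 had their highest signal in control/standard (Nmbr, Rxfp3, Tacr1 and Tacr3), where 23.6% of all 10106 genes detected in every sample had theirs. The lowest signal was in FR30/HF for 4 of the 7 (Sstr2, Sstr4, Tacr1 and Tacr3), and for 23.9% of all genes. Of these receptors, Sstr2 and Sstr4 had no order beyond their SD. Tacr1 in FR30/HF did not stand apart from control/HF and FR30/standard, so the count is one of order alone. Each sample is part of 2 of the 4 comparisons below, so the comparisons are not independent of each other.

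**Figure D2:**
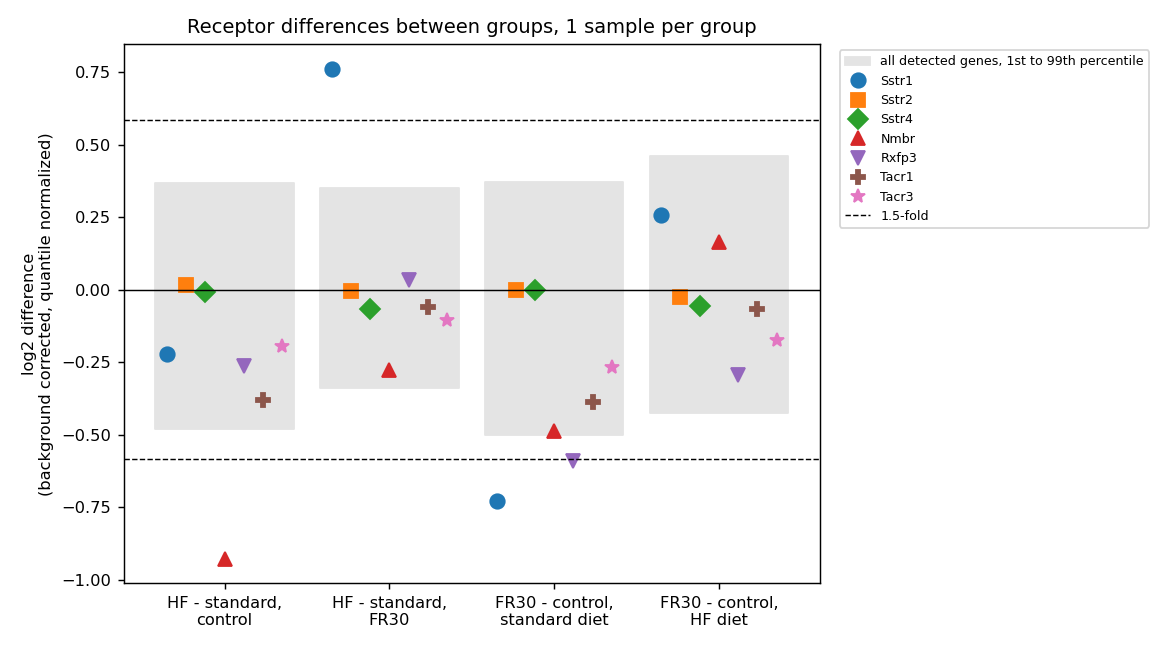
Log2 differences of the 7 detected receptors in the 4 comparisons, after background correction and quantile normalization, over grey bands from the 1st to the 99th percentile of all genes detected in both samples. Dashed lines mark 1.5-fold, and Sstr1, Nmbr and Rxfp3 lie beyond them, each in the comparisons given in the text.

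For comparison between groups, background was removed from the non-normalized signals and differences are given on the log2 scale, with 1.5-fold at 0.58. The diet comparison in control rats asked what accompanied the high-fat diet without prenatal undernutrition. Nmbr was lower in control/HF by a log2 difference of -0.93, or 1.90-fold, the 7th lowest of 10404 genes detected in both samples. Tacr1 followed at -0.38, Rxfp3 at -0.26, Sstr1 at -0.22 and Tacr3 at -0.19, while Sstr2 (0.02) and Sstr4 (-0.01) were level. Counting Sstr4, 6 of 7 receptors were lower, with a median of -0.22, against 45.8% of all genes lower and a median of 0.01. Only Nmbr passed 1.5-fold, 1 of 7 receptors, where 0.586% of all genes did. Nmbr, Rxfp3 and Tacr1 had signals further apart than 2 deposited SDs on each side, 3 of 7 receptors, all lower, and 6.4% of all genes were lower by that much. Among genes with a mean signal under 300, a ceiling chosen after the values were seen, 0.958% of 2924 passed 1.5-fold. In the authors' normalized signals, where the background is still included, the Nmbr difference was -0.44, short of 1.5-fold.

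Markers of the neighbouring thalamus were also lower in control/HF. Of 8 thalamus markers with a probe, 7 were detected in both samples, and 6 of these were lower, with a median of -0.39 and Ramp3 (-0.70), Prkcd (-0.60) and Gbx2 (-0.54) furthest down. The remaining one, Tnnt1, was higher by 0.56, at 192 ± 9.86 and 219 ± 5.06. Amotl1 was not detected in any sample. The summed signal of the 8 markers was 6101 in control/standard, 4694 in control/HF, 6147 in FR30/standard and 5409 in FR30/HF. The 8 detected telencephalon markers divided into 4 higher and 4 lower for diet in control rats, with a median of -0.01. Prl, the prolactin gene of the pituitary, had the order of groups that Nmbr had and read 759 ± 17.7, 159 ± 7.15 (not detected), 313 ± 11.6 and 240.5 ± 15.1. Lhb, another pituitary hormone gene, had that order too. It read 213 ± 2.59, 161 ± 6.71 (not detected), 192 ± 7.78 and 171 ± 2.37 (not detected). Of 7 pituitary markers with a probe, 2 (Tshb and Pitx1) were detected in both control samples and neither was lower. That count leaves out Prl and Lhb, which were not detected in control/HF. Fshb, Cga and Pou1f1 were detected in no sample. The summed pituitary signal lay between 5151 in control/HF and 6588 in FR30/HF. The part of these markers in the Nmbr difference was not tested.

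The genes closest to Nmbr over the 4 samples, by root mean square difference of log2 values centred on each gene's mean, were Shox2 (0.04), Itga1 (0.04) and Rora (0.04), among 8270 named genes. Shox2, a homeobox transcription factor, had signals of 592 ± 75.1 (deposited SD), 394 ± 26.2, 472 ± 11.7 and 425 ± 26.1 in the order control/standard to FR30/HF used above. Rora, a nuclear receptor of the clock, had 1194 ± 40.2, 726 ± 14.4, 880.1 ± 25.4 and 781 ± 17.9. With 4 values per gene and so many genes, some close matches are bound to be found.

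**Figure D3:**
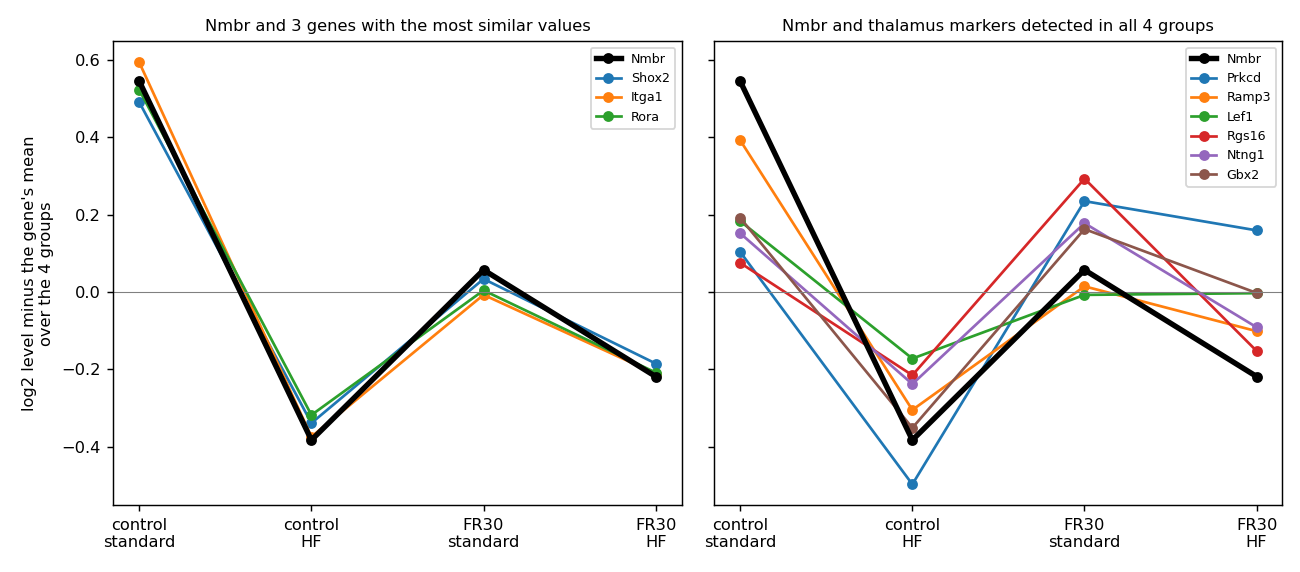
Log2 level of each gene minus its mean over the 4 samples, for Nmbr (black) with its 3 closest genes (left) and with the thalamus markers detected in all 4 samples (right), lines joining the values of a gene. Shox2, Itga1 and Rora follow Nmbr in every group, as does Ramp3 among the thalamus markers. Lef1 is lower in FR30/standard than in control/standard too, and Prkcd, Rgs16, Ntng1 and Gbx2 are higher or nearly as high there.

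The diet comparison in FR30 rats asked the same after prenatal undernutrition. Sstr1 was higher in FR30/HF than in FR30/standard by 0.76, or 1.70-fold, the 12th highest of 10183 genes. The other receptors lay between -0.28 (Nmbr) and 0.04 (Rxfp3), with Tacr3 at -0.10, Tacr1 at -0.06, Sstr4 at -0.06 and Sstr2 at -0.01. Of the 7 receptors 2 were higher and 5 lower, with a median of -0.06 beside one of -0.00 over all genes, of which 51.0% were lower. Sstr1 alone passed 1.5-fold, 1 of 7, where 0.324% of all genes did, and it alone was further apart than 2 SDs on each side, with 2.65% of all genes higher by that much. In the authors' normalized signals the Sstr1 difference was 0.55, just short of 1.5-fold.

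Genes listed as midbrain dopamine and choroid plexus markers were higher in FR30/HF in the same comparison, which does not show where their RNA came from. Of the midbrain dopamine markers 5 of 5 detected were higher, with a median of 0.39. They ran from Nr4a2 at 0.03 to the dopamine transporter gene Slc6a3 at 1.68, and En1 had no probe. Slc6a3 read 370.2 ± 12.2 (deposited SD) in control/standard, 357 ± 10.1 in control/HF, 593 ± 13.7 in FR30/standard and 1642 ± 33.7 in FR30/HF, while Ddc and Pitx3 were detected in no sample. The summed signal of the 7 midbrain markers was 5456, 5524, 6269 and 8248 in that order. Of the choroid plexus markers 3 of 3 detected were higher, with a median of 0.28. They ran from Kcnj13, level at 0.003, to the transthyretin gene Ttr at 3.91. Ttr read 523 ± 14.9, 183 ± 4.59 (not detected), 209 ± 8.19 and 1251 ± 49.1, so it was higher in the samples where Sstr1 was highest, and Kl, Folr1 and Slc4a5 were detected in no sample. The summed signal of the 8 choroid plexus markers was 1886, 1558, 1579 and 2686. The part of either list in the Sstr1 differences was not tested.

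The prenatal comparison on the standard diet asked how FR30 rats differed without the high-fat challenge. Sstr1 was lower in FR30/standard by -0.73, or 1.65-fold, the 20th lowest of 10190 genes, and Rxfp3 by -0.59, or 1.51-fold, the 52nd lowest. Nmbr (-0.49), Tacr1 (-0.39) and Tacr3 (-0.26) were lower by less. Sstr2 was at -0.0004 and Sstr4 at 0.00. Counting Sstr2, 6 of 7 receptors were lower, with a median of -0.39, beside 43.4% of all genes and a median of 0.02. Sstr1 and Rxfp3 passed 1.5-fold, 2 of 7 receptors, where 0.775% of all genes did. Sstr1, Nmbr, Rxfp3 and Tacr1 were further apart than 2 SDs on each side, 4 of 7, with 6.28% of all genes lower by that much. In the authors' normalized signals Sstr1 was at -0.53, short of 1.5-fold. Rxfp3 sat at the threshold: its difference was -0.20 in the authors' normalized signals, -0.24 without background correction and -0.42 with a larger offset. Of 2708 genes with a mean signal under 300, as Rxfp3 and Nmbr have, 1.07% passed 1.5-fold. Hypothalamus markers were lower as well, 10 of 16 with a median of -0.13, and their part in the receptor differences was not tested. Thalamus markers had a median of -0.00 here, with 3 higher and 3 lower. Ttr was lower by -2.38 and Prl by -1.79, with medians of 0.03 over 3 choroid plexus markers and -0.30 over 4 pituitary markers, and Slc6a3 was higher by 0.97, with 4 of 5 midbrain markers higher.

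On the high-fat diet, the same prenatal contrast showed smaller receptor differences. They ran from -0.29 for Rxfp3 and -0.17 for Tacr3 to 0.16 for Nmbr and 0.26 for Sstr1, with a median of -0.06 beside 0.00 over all genes. Of the 7 receptors 5 were lower, as were 48.2% of all genes. Tacr1 was at -0.06, Sstr4 at -0.06 and Sstr2 at -0.02. None of the 7 passed 1.5-fold, where 0.802% of all genes did. Tacr3, at 207 ± 2.71 in FR30/HF and 217 ± 1.46 in control/HF, was the one receptor further apart than 2 SDs on each side, with 6.51% of all genes lower by that much. Thalamus markers were higher in FR30/HF, 6 of 6 detected in both samples, with a median of 0.19. Tnnt1, not detected in FR30/HF, is outside that count and went the other way, at 219 ± 5.06 in control/HF and 188 ± 6.32 in FR30/HF. Of the midbrain markers 4 of 5 were higher, with a median of 0.38. These 5 ran from -0.06 to 2.72 for Slc6a3, which read 357 ± 10.1 in control/HF and 1642 ± 33.7 in FR30/HF. Choroid plexus markers were higher too, 4 of 4 detected in both samples, with a median of 0.24. Ttr, not detected in control/HF, is outside that count, at 183 ± 4.59 there and 1251 ± 49.1 in FR30/HF. The part of these markers in the Nmbr value of 0.16 and the Sstr1 value of 0.26 was not tested.

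The diet difference was set against the prenatal group next, as the FR30 difference minus the control difference. It was 0.985 for Sstr1, which was lower on the high-fat diet in control rats and higher in FR30 rats, and 0.65 for Nmbr, which was lower in both and more so in control rats. Tacr1 (0.32), Rxfp3 (0.30), Tacr3 (0.09), Sstr2 (-0.02) and Sstr4 (-0.06) stayed under 0.58. Thus 2 of 7 receptors passed 1.5-fold on the side of FR30 rats, where 0.673% of 10106 genes did.

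The genes closest to Sstr1 over the 4 samples were less close than those of Nmbr. They were Ythdf2 (root mean square difference 0.11), Eea1 (0.13) and Dctn4 (0.13). Ythdf2, a reader of methylated mRNA, had signals of 1418 ± 48.7 (deposited SD), 1160 ± 7.64, 883 ± 5.26 and 1663 ± 46.7 in the same order of groups. Its values were lowest in FR30/standard, as those of Sstr1 were. For Rxfp3 the closest genes were Trim2 (0.02), Phip (0.03) and Tanc2 (0.04).

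The genes of the ligands were read in the same way. Of 14 ligand and binding protein genes, 8 were detected in all 4 samples. Cort, Rln3, Tac4, Ucn, Ucn2 and Ucn3 were not detected in any, so the peptide partner of Rxfp3, relaxin-3, which is made outside the hypothalamus, had no measured level. None of the 8 reached 1.5-fold in any of the 4 comparisons, where between 0.324% and 0.802% of all genes did, so the count does not set the ligands apart from other genes. Their medians were 0.06, -0.00, -0.01 and -0.06 in the order of the comparisons above.

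**Figure D4:**
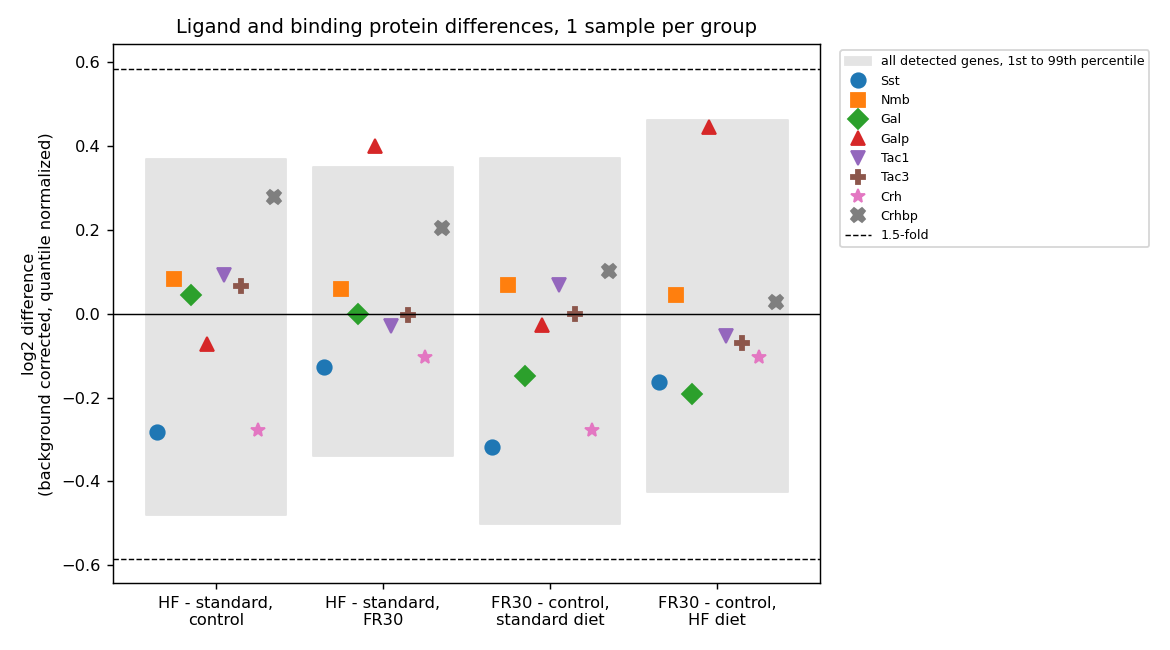
Log2 differences of the 8 detected ligand and binding protein genes in the 4 comparisons, over grey bands from the 1st to the 99th percentile of all genes detected in both samples. Every point lies inside the dashed 1.5-fold lines, and Galp leaves its band in the diet comparison of FR30 rats.

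Sst, the gene of somatostatin itself, had signals of 2930.5 ± 127 (deposited SD) in control/standard, 2367 ± 52.3 in control/HF, 2300 ± 60.1 in FR30/standard and 2124 ± 61.6 in FR30/HF. Control/standard was the highest sample, as for Tacr1, and the log2 differences were -0.28 and -0.13 for diet and -0.32 and -0.16 for FR30. Unlike its receptor Sstr1, Sst was lowest in FR30/HF. Nmb, the ligand of Nmbr, differed by between 0.04 and 0.08, with signals of 938 ± 7.35, 976 ± 8.01, 970.4 ± 29.2 and 1000.2 ± 27.5. A dimmer probe, matched to Nmb through an older symbol, gave 289.9 ± 14.6, 273 ± 13.5, 286 ± 5.88 and 289 ± 3.49. Its 4 values could not be ordered beyond their SD.

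Among the tachykinin genes, Tac1, the source of substance P, lay between -0.05 and 0.09 and Tac3, the neurokinin B gene, between -0.07 and 0.07. Gal, the galanin gene, was lower in FR30 rats by -0.15 on the standard diet and -0.19 on the high-fat diet. Galp, the galanin-like peptide of the arcuate nucleus, had 339 ± 11.2 (deposited SD), 330.2 ± 7.82, 337 ± 10.7 and 401 ± 4.91 in the 4 groups. FR30/HF stood above the rest, by 0.40 over FR30/standard and 0.44 over control/HF. Crh was highest in control/standard at 381 ± 6.13, beside 336 ± 1.93, 337 ± 10.7 and 324 ± 4.59, and Crhbp, the protein that binds and neutralises the hormone, lay between 0.03 and 0.28.

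Of 10 further receptors of the same families, 8 had a probe and 3 were detected. Galr2, the second galanin receptor, had signals of 359.5 ± 9.09 (deposited SD) in control/standard, 354 ± 5.31 in control/HF, 337 ± 2.14 in FR30/standard and 374 ± 16.4 in FR30/HF, with its lowest value in FR30/standard. Rxfp1, the relaxin receptor, had 239 ± 3.65, 229 ± 5.71, 216 ± 12.6 and 206 ± 9.04. Both FR30 samples were below both control samples, but control/HF and FR30/standard were closer than the sum of their SDs. The share of all genes with this order was not counted. The FR30 differences of Rxfp1 were -0.33 on the standard diet and -0.40 on the high-fat diet. Brs3, the orphan bombesin-family receptor known for its part in energy balance in mice, read between 190 and 201 close to the detection limit. Sstr5, Grpr, Rxfp2, Galr3 and Crhr2 were not detected in any sample, and Rxfp4 and Tacr2 were not analysed here.

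Signalling partners act downstream of the receptors. Of 37 genes of G proteins, potassium channels, phospholipases, adenylyl cyclases and desensitisation, 35 had a probe, 30 were detected in all 4 samples. None passed 1.5-fold, beside the same 0.324% to 0.802% of all genes, which does not show them to be level. The furthest were Adcy9, an adenylyl cyclase, at -0.50 for diet in control rats, Gnaq, the alpha subunit of Gq, at -0.47 for FR30 on the high-fat diet, and on the same comparison the potassium channel Kcnj3 at 0.39 and the G protein regulator Rgs8 at 0.35. Adcy9 had signals of 952 in control/standard, 709.6 in control/HF, 798 in FR30/standard and 698 in FR30/HF, again with the highest in control/standard. The Adcy9 and Gnaq differences lay beyond the 1st percentile of all genes in their comparisons, which was -0.48 and -0.43. Gnaq read 247 ± 4.36 (deposited SD) in control/HF and 216 ± 12.3 in FR30/HF. Kcnj3 read 184 ± 8.38 and 199 ± 5.24 in these samples, close to the detection limit, and was not detected in control/standard. Neither Gnaq nor Kcnj3 was further apart than 2 SDs on each side, while Adcy9 and Rgs8 were in their comparisons.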

How the data were processed

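Total RNA of 4 rat hypothalamus samples, 1 per group, was labelled with biotin and hybridised to Illumina bead arrays, per the labels' protocols. Per the submitters' processing notes, GenomeStudio was used, and its version is not stated. The authors deposited a non-normalized intensity per probe with a detection p-value, and a normalized intensity with an SD. The normalization method, and what the SD was taken over, are not stated in the sources. Deposited normalized intensities in the value table were identical (largest difference 0).

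The non-normalized intensities were turned into log2 values by neqc in limma 3.58.1 (R 4.3.3), with background from the detection p-values, an offset of 16 and quantile normalization. The brightest probe stood for a gene. Older symbols were matched to RefSeq names, and 134 probes without a usable symbol were left out. Differences are counted for genes with a detection p under 0.01 in each sample compared, with 1.5-fold as the size threshold and no test. The number of arrays, 1 per group, limits the precision. These steps were also tested on simulated data with planted changes. Members and gene lists were chosen with earlier results of these data known. Named are all members, ligands and family receptors, the 4 furthest genes of longer lists, and the 3 closest genes of each member past 1.5-fold. Alternatives tried were the authors' normalized signal, no background correction, median centring, an offset of 50, a detection p under 0.05, the mean of detected probes and a lower size threshold (log2 difference 0.32). Figures were drawn with matplotlib 3.10.9.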

Additional observations from a re-analysis of the deposited data

Results flagged for a closer look

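Sstr1 was marked because its diet differences ran in opposite directions in the prenatal groups. It was lower on the high-fat diet by -0.22 in control rats and higher by 0.76 in FR30 rats, a gap of 0.985. Each value rests on 1 sample per group, and the difference was not tested.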

How the results depend on the processing

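The 1.5-fold calls among the receptors in the 4 comparisons were lost without background correction. With the authors' normalized signal, and also with no background correction, the number of receptors past 1.5-fold was 0 in each of the 3 comparisons that had any (1 for diet in control rats, 1 for diet in FR30 rats and 2 for FR30 on the standard diet). Nmbr was then at -0.44 and -0.48 for diet in control rats, and Sstr1 at 0.55 and 0.58 for diet in FR30 rats and at -0.53 and -0.56 for FR30 on the standard diet, the 0.58 lying just under the threshold. An offset of 50 left 1 receptor, Sstr1, for FR30 on the standard diet. At a log2 threshold of 0.32 there were 2 for diet in control rats and 4 for FR30 on the standard diet. Background correction enlarges the differences of dim probes by construction. For the gap between the diet differences, alternatives were added after the values were seen: 1 receptor in place of 2 passed 1.5-fold with the authors' normalized signal, with no background correction and with an offset of 50. Sstr1 was then at 0.72, 0.76 and 0.91, past the threshold each time, and Nmbr at 0.32, 0.34 and 0.52. Of 168 receptor differences in the 4 comparisons under alternatives, 2 changed sign, both of Sstr4 for diet in control rats and both within 0.01 of 0. Detection was 7 of 9 in every group at p under 0.05 too.

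Over all genes, the numbers past 1.5-fold were 61, 33, 79 and 83 in the order of the comparisons above. They were 16, 19, 28 and 26 with the authors' normalized signal, 15, 19, 27 and 25 with no background correction, 32, 24, 47 and 50 with an offset of 50, 75, 50, 88 and 103 at a detection p under 0.05, and 482, 250, 540 and 582 at a threshold of 0.32. Of the 61 for diet in control rats 15 were higher, and of the 16 with the authors' signal 7. No paired analysis was possible because each group holds 1 sample. No replicate could be left out for the same reason.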

Other observations

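Beyond the receptors above, 43 other peptide receptor genes were looked up, of which 40 had a probe and 18 were detected in all 4 samples. None passed 1.5-fold in any comparison, where between 0.324% and 0.802% of all genes did, so the count does not set them apart. Their medians were -0.01 and -0.05 for diet in control and FR30 rats, and 0.01 and -0.03 for FR30 on the standard and high-fat diets. The furthest were the endothelin receptor Ednrb (-0.30), the receptor Adcyap1r1 for the peptide PACAP (-0.25) and the cholecystokinin receptor Cckbr (-0.25), all for FR30 on the high-fat diet, and the orexin receptor Hcrtr1 (0.24) for diet in control rats. Ednrb had signals of 5424 in control/standard, 4927 in control/HF, 4383 in FR30/standard and 3923 in FR30/HF. Both FR30 samples lay below both control samples, an order whose share over all genes was not counted. Receptors with no detected signal in any group numbered 21 and included Oxtr, Oprm1, Ghsr, Glp1r, Npy2r and Lepr.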
